A study of Mus musculus with 8 samples.

Results

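The gasdermin, inflammasome and caspase genes described here are 8 of the 24054 rows of the deposited gene table: Nlrp3, Pycard, Casp1, Casp4, Casp8, Gsdmd, Dfna5 and Il18. Dfna5 is an older symbol of gasdermin E (Gsdme). They were chosen by symbol and function with earlier results of these data known, so their calls in the 6 comparisons below are a description and support nothing.

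The cells were DC2.4, 1 mouse dendritic cell line of C57BL/6 origin. All groups first spent 4 h in medium with 0.1% serum. The untreated group then received no allergen, and the labels name no vehicle for it. The other 3 groups were exposed for 4 h to 250 PNU/ml (protein nitrogen units, a measure of allergen extract) of 1 extract each, from house dust mites (HDM), from timothy grass (Grass) and from cat hair (Cat). Each group has 2 libraries, described as independent samples without a word on separate cultures. P-values therefore measure the spread between these libraries, pooled in part over genes, and that spread may be technical.

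Gasdermins are pore-forming proteins that stay inactive until a protease cuts them, after which the freed part perforates the plasma membrane in a lytic death called pyroptosis. In the inflammasome, the sensor NLRP3 gathers the adaptor ASC, which recruits caspase-1, and caspase-1 cuts gasdermin D and the precursors of the cytokines interleukin-1 beta and interleukin-18. Gasdermin E links apoptosis to this lytic death, and caspase-8 is the initiator caspase of death receptors.

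Values are depth-scaled reads, which can be compared between libraries for 1 gene but not between genes, since they are not divided by gene length. The scaled values did not add up to equal totals. They summed to 1032128 and 1047501 in the untreated libraries and to 975215 to 1001836 in the allergen libraries, so small differences can depend on the scaling. Libraries held 31.94 to 43.32 M reads. A row was tested with limma where 2 or more libraries reached a value of 0.5, which 11455 rows did, among them every gene of the 8 but Pycard, and was called at an adjusted p under 0.05. The leukocyte gene Ptprc stood at 256 to 330 and Emr1 (F4/80, a macrophage marker) at 142 to 171. Of 15 dendritic and antigen-presentation markers 10 passed the filter. Among these 15, Cd74 stood at 182 to 208 and Cd86 at 24.2 to 26.0. Itgax, which encodes CD11c, was low at 2.57 to 3.29, Zbtb46 was at 0.99 to 1.96, and Flt3 had at most 4 reads. The MHC class II gene H2-Ab1 had 0 reads in all 8 libraries, where 3 reads would give 0.0677 to 0.0923. Summed markers of T cells, B cells, fibroblasts and epithelium reached at most 3.21, 0.138, 0.079 and 0.0292 in a library.

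The untreated libraries differed from each other in a way that touches these genes. All 7 tested genes were higher in untreated 2 than in untreated 1, by a median of 0.12 on the log2 scale, against 55.2% of all tested rows with a median of 0.01. A list of 24 interferon-stimulated genes had a mean centred log2 value of 0.23 in untreated 1 and 0.47 in untreated 2, and of -0.16 to -0.01 in the allergen libraries, and its part in the values below was not tested. In bulk RNA, fewer expressing cells and less RNA per cell cannot be told apart.

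The promoter of Dfna5 is shown because this gene changed most of the 8. The bases are from RefSeq, build GRCm38.p6, chr6:50261770-50262019, minus strand, and end at the last base before the transcription start. The submitters' processing notes name another build, mm9, for the files.

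Dfna5: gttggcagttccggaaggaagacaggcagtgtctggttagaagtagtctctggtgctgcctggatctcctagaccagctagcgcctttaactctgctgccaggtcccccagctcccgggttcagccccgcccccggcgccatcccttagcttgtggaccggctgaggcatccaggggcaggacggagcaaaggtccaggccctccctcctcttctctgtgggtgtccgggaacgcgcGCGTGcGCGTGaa

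Capitals mark GCGTG, the core of the xenobiotic response element bound by the aryl hydrocarbon receptor, which begins at -13 and at -7 from the start. It was searched on both strands after the values were seen, and 28.2% of 32851 RefSeq windows of 250 bases hold it. None of the windows of Nlrp3, Pycard, Casp1, Casp4, Casp8 and Il18 does. The letters GAAANNGAA, the core of the interferon-stimulated response element, and TTCNNNGAA, the gamma-activated site, occur in 7.13% and 7.02% of all windows and in none of these genes' windows. Such matches, or their lack in 1 window, are descriptions of letters only.

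The sensor Nlrp3 was lower after HDM and Grass and not after Cat. It was at 115.9 and 124.3 in the untreated libraries, 97.0 and 95.1 with HDM, 90.6 and 88.5 with Grass, and 118.1 and 117.4 with Cat. The 4 HDM and Grass libraries lay below the 4 others, and the Cat libraries lay within the untreated range. Nlrp3 fell with HDM by 0.32 on the log2 scale (SE 0.04, limma adjusted p = 1.09e-07), from 120 ± 5.92 to 96.1 ± 1.33 (SD, n = 2 each). With Grass it fell by 0.42 (SE 0.04, limma adjusted p = 8.79e-10), to 89.6 ± 1.48 (SD, n = 2). With Cat the difference was -0.03, with a 95% interval of -0.10 to 0.05 and a limma adjusted p of 0.653.

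Pycard, which encodes the adaptor ASC, was barely detected. It had 8 reads and 1 read in the untreated libraries, 5 and 6 with HDM, 5 and 3 with Grass, and 3 and 0 with Cat. These are values of at most 0.231, and the 0 in Cat 2 allows a value of up to 0.0828 (3 reads, counting error only). A difference in Pycard against untreated cells was not detectable at this depth.

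**Figure D1:**
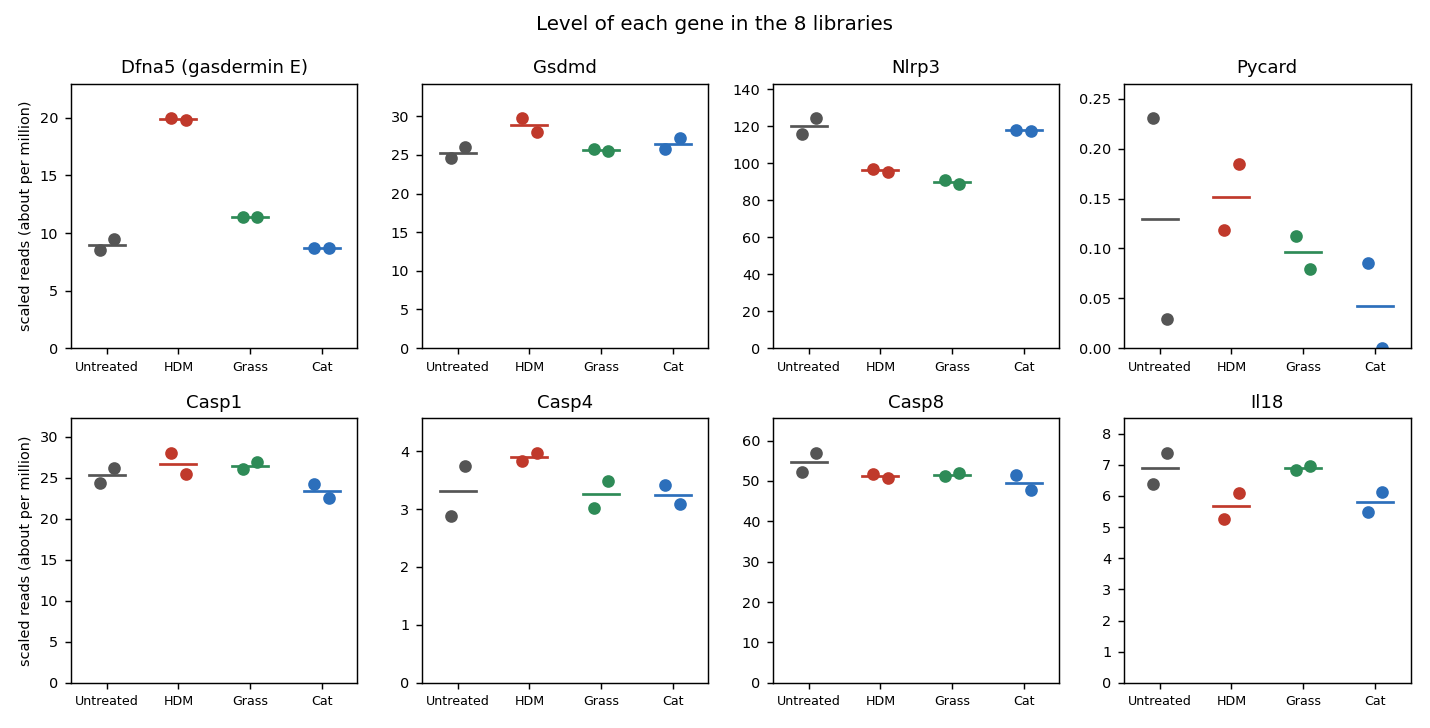
Each panel plots 1 gene, with the 4 groups on the x axis and depth-scaled reads on the y axis, which starts at 0; points are the 2 libraries of a group and bars their mean. Dfna5 separates HDM (mean 19.9) and Grass (11.4) from the other groups, Nlrp3 is lower with HDM (96.1) and Grass (89.6), and Pycard is at or below 0.231.

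Casp1, the protease of the inflammasome, changed little. It was at 24.33 and 26.2 in untreated cells, 28.03 and 25.4 with HDM, 26.0 and 26.9 with Grass, and 24.25 and 22.6 with Cat. The Cat libraries lay just below the untreated ones, and the HDM and Grass libraries overlapped with them. The log2 differences from untreated were 0.08 with HDM (95% interval -0.04 to 0.20), 0.07 with Grass (-0.05 to 0.19) and -0.11 with Cat (-0.23 to 0.01), and none was called.

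Casp4, the mouse caspase-11, which responds to lipopolysaccharide in the cytosol and cuts gasdermin D, was low. It was at 2.88 and 3.73 in untreated cells, 3.82 and 3.97 with HDM, 3.02 and 3.48 with Grass, and 3.41 and 3.09 with Cat. Both HDM libraries were above the rest, but the untreated values differed by 25.8% of their mean. The HDM difference of 0.24 had a 95% interval of -0.06 to 0.54 (limma adjusted p = 0.224), and those with Grass and Cat were both -0.02, with intervals from -0.32 to 0.28. In RefSeq, Casp4 lies between Casp1 and Casp12 on chromosome 9, and Casp12 had 0 reads in every library.

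Casp8 encodes the initiator caspase of death receptors, which also restrains necroptosis. It was at 52.3 and 56.95 in untreated cells, 51.8 and 50.6 with HDM, 51.2 and 51.9 with Grass, and 51.4 and 47.6 with Cat. Every library of the 3 extracts was lower than either untreated library. Casp8 fell with Cat by 0.14 (SE 0.05, limma adjusted p = 0.032), from 54.6 ± 3.28 to 49.5 ± 2.63 (SD, n = 2 each). That call ended under 9 of 20 alternatives, among them TMM, DESeq2 and upper-quartile scaling, and also without untreated 2, where the difference was -0.08, and without Cat 2, where it was -0.09. With HDM (-0.09) and Grass (-0.08) Casp8 was not called, but it was without untreated 1, at -0.15 and -0.14.

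Of the gasdermins, Dfna5 rose most with HDM and less with Grass. It was at 8.53 and 9.45 in untreated cells, 19.98 and 19.8 with HDM, 11.4 and 11.4 with Grass, and 8.66 and 8.69 with Cat. The HDM libraries lay above all others, the Grass libraries above untreated and Cat, and the Cat libraries within the untreated range. The change with HDM was 1.14 on the log2 scale (SE 0.08, limma adjusted p = 1.66e-11), a 2.20-fold rise from 8.99 ± 0.652 to 19.9 ± 0.142 (SD, n = 2 each). With Grass Dfna5 rose by 0.34 (SE 0.08, limma adjusted p = 0.00101), to 11.4 ± 0.0396 (SD, n = 2). With Cat the difference was -0.05 (95% interval -0.21 to 0.11, limma adjusted p = 0.722). By size and direction, the HDM rise was number 13 of 11455 rows. In the authors' deposited table of genes changed by HDM, Dfna5 has a fold of 2.27 and an FDR of 2.13e-48. It is the 1 gene of the 8 in that table. The authors' deposited tables for Grass and Cat hold 0 of the 8. All 3 tables hold folds of at least 1.5 and list only a small part of the 24054 rows. Absence from them is therefore no result about these genes.

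Gsdmd, the gasdermin cut by the inflammatory caspases, rose slightly with HDM. It was at 24.6 and 26.0 in untreated cells, 29.8 and 27.9 with HDM, 25.8 and 25.5 with Grass, and 25.7 and 27.2 with Cat. Both HDM libraries were above all others, and neighbouring groups among the other 3 overlapped. The rise was 0.19 (SE 0.05, limma adjusted p = 0.0102), from 25.3 ± 0.998 to 28.9 ± 1.30 (SD, n = 2 each). The call ended without untreated 1, at 0.15, and without HDM 1, at 0.14. With Grass the difference was 0.02 (95% interval -0.09 to 0.13) and with Cat 0.06 (-0.05 to 0.18), neither of them called.

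Il18, the cytokine that caspase-1 matures, was lower after HDM and Cat in both libraries, but no comparison passed the test. It was at 6.40 and 7.38 in untreated cells, 5.26 and 6.09 with HDM, 6.82 and 6.95 with Grass, and 5.48 and 6.12 with Cat. The HDM and Cat libraries lay below the untreated ones and overlapped each other, and the Grass libraries lay within the untreated range. The difference was -0.28 with HDM (95% interval -0.50 to -0.05, limma adjusted p = 0.0577), -0.24 with Cat (-0.47 to -0.02, limma adjusted p = 0.131) and 0.00261 with Grass (-0.22 to 0.23). The HDM difference was called without untreated 1 and without HDM 2, at -0.38 each, and in the fit with the replicate block. Il18 overlaps Bco2 and Tex12 in RefSeq, and the strand setting of the counting is not given in the sources used here. Its reads and those of Bco2, at 2.79 to 4.84, may therefore be mixed, while Tex12 had at most 1 read.

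In counts, limma called 2 of the 7 tested genes higher and 1 lower with HDM, where 31.2% of all tested rows were called (9.22% higher and 21.9% lower). With Grass 1 was higher and 1 lower, where 35.8% were called (10.4% and 25.4%). With Cat 1 was lower and 0 higher, where 18.0% were called (13.6% lower and 4.34% higher). At an unadjusted p under 0.05, 2 genes passed with Cat, Casp8 and Il18, both lower, and neither edgeR nor DESeq2 on recovered reads called a gene of the 7 higher. Both libraries of the extract lay above both untreated ones for 3 genes with HDM, 1 with Grass and 0 with Cat, which held for 22.8%, 23.8% and 20.1% of tested rows. They lay below for 3, 2 and 3 genes, which held for 41.1%, 42.2% and 36.0%. The median log2 difference of the 7 was 0.08, 0.00261 and -0.05, beside -0.03, -0.04 and -0.03 over all tested rows. These 3 comparisons share the untreated libraries.

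The balance of higher and lower calls depends on the scaling. Of all calls, 29.6% with HDM, 29.1% with Grass and 24.1% with Cat were higher under the deposited scaling. With TMM factors the shares were 47.0%, 46.6% and 41.1%, with DESeq2 factors 46.9%, 46.1% and 41.0%, and with upper-quartile factors 65.2%, 64.8% and 55.7%. The calls of Dfna5, Gsdmd and Nlrp3 held under each of these scalings.

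**Figure D2:**
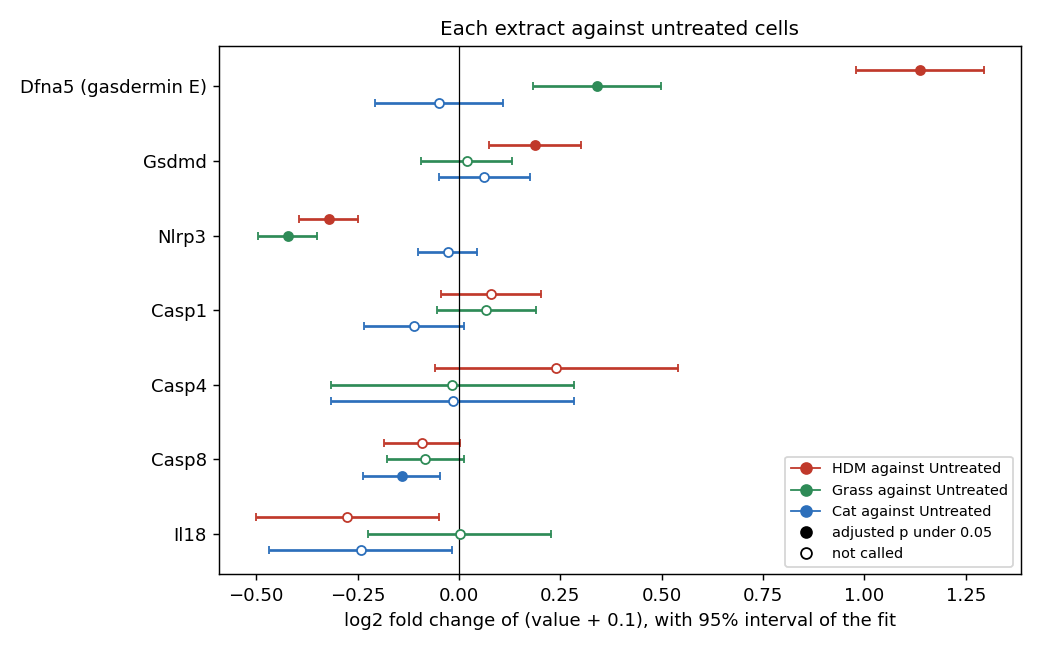
The x axis is the log2 fold change of (value + 0.1) against untreated and the y axis the 7 tested genes; points are limma estimates from 2 libraries a group, bars their 95% intervals, and filled points passed an adjusted p of 0.05. Dfna5 with HDM (1.14) stands farthest from 0, and Nlrp3 lies below 0 with HDM (-0.32) and Grass (-0.42).

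Between the extracts, Dfna5 and Nlrp3 differed, and each extract enters a pair of these comparisons. Dfna5 was higher after HDM than after Grass by 0.80 on the log2 scale (SE 0.08, limma adjusted p = 8.61e-08). Against Cat it was higher by 1.19 after HDM (SE 0.08, limma adjusted p = 2.41e-11) and by 0.39 after Grass (SE 0.08, limma adjusted p = 0.000948). Nlrp3 was lower than after Cat both after HDM (-0.29, SE 0.04, limma adjusted p = 1.45e-06) and after Grass (-0.39, SE 0.04, limma adjusted p = 1.17e-08). The order of the groups was therefore HDM, Grass, then untreated and Cat together for Dfna5, and untreated and Cat together, HDM, then Grass for Nlrp3. For Nlrp3 the step from HDM to Grass, 0.10 (95% interval 0.03 to 0.17, limma adjusted p = 0.156), was not called, although these libraries did not overlap. It was called without untreated 1 and without untreated 2.

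HDM against Grass gave 1 gene of 7 higher and 0 lower, where 2.31% of all tested rows were called (1.69% higher and 0.62% lower). At an unadjusted limma p under 0.05, 4 genes passed, of which Dfna5, Gsdmd and Nlrp3 were higher and Il18 was lower. Neither edgeR nor DESeq2 called a gene of the 7 lower. HDM against Cat gave 1 higher and 1 lower, where 7.76% were called (2.94% and 4.82%). Grass against Cat gave 1 higher and 1 lower, where 11.8% were called (3.58% and 8.23%). Casp1 was close to the threshold: against Cat it was higher by 0.19 with HDM (SE 0.06, limma adjusted p = 0.0504) and by 0.18 with Grass (SE 0.06, limma adjusted p = 0.0513). These differences were called under 10 and 9 of 20 alternatives, TMM, DESeq2 and upper-quartile scaling among them, and without either untreated library. Gsdmd was higher with HDM than with Grass (0.17) and Cat (0.12) in both libraries, and neither was called. Il18 differed by -0.28 between HDM and Grass and by 0.25 between Grass and Cat, with no overlap and no call.

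**Figure D3:**
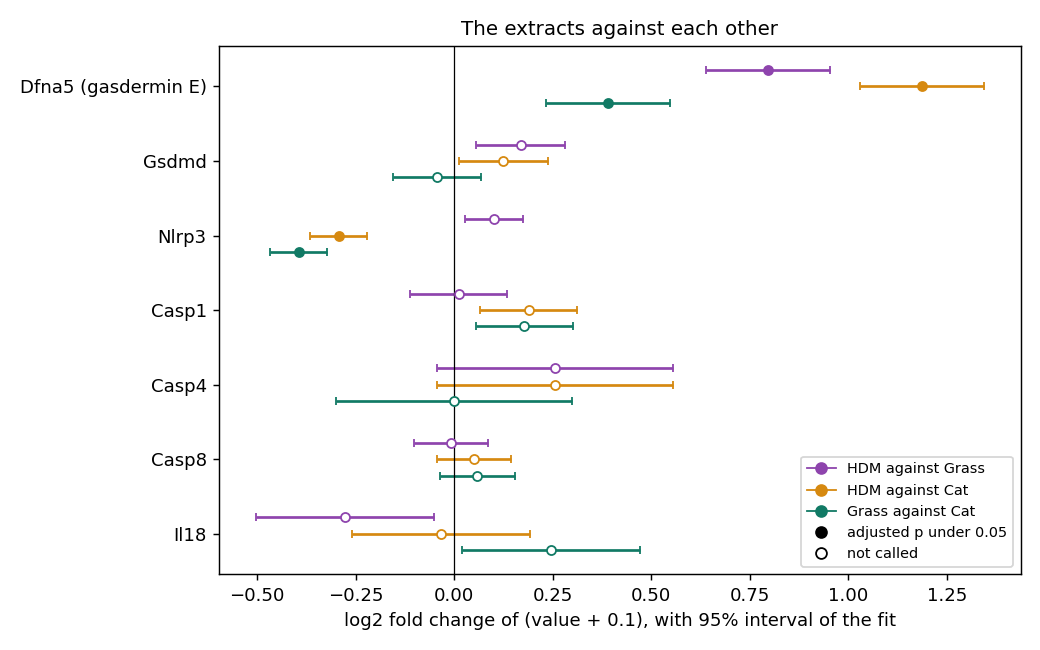
The x axis is the log2 fold change of (value + 0.1) between a pair of extracts and the y axis the 7 tested genes; points are limma estimates, bars 95% intervals, and filled points passed an adjusted p of 0.05. Dfna5 lies to the right of 0 in all 3 comparisons (0.80, 1.19 and 0.39) and Nlrp3 to the left in those against Cat (-0.29 and -0.39).

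For each tested gene, the most similar other genes were found by Pearson's r of log2 values over the 8 libraries, which share their depth and scaling, and are given as a description. Dfna5 was most like Csf2rb2 (r = 0.998) and Csf2rb (0.993), which encode beta chains of cytokine receptors and are close copies whose reads may be split. Csf2rb had means of 53.9, 141, 68.3 and 55.6 in untreated, HDM, Grass and Cat cells, the same order as Dfna5 for HDM and Grass. Nlrp3 was most like Map4k1, a kinase gene (0.990). Casp4 was most like Hmga1, which encodes a chromatin protein (0.991), and Msr1, a scavenger receptor (0.962). The closest genes to Gsdmd were Rnf170 (0.970) and Creb5 (0.959), and those to Casp1 were Thap6 (0.947) and Mpv17 (0.930). For Casp8 they were Rpl22l1 (0.967) and Serpinb6a (0.954), and for Il18 Hsd17b10 (0.973) and 3110001I22Rik (0.956).

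The rest of the pathway was followed in 7 lists of 85 symbols, of which 83 had a row and 61 passed the filter. With HDM 8 of the 61 were higher and 15 lower, with Grass 9 and 12, and with Cat 4 and 7. Of all tested rows 9.22% were higher and 21.9% lower with HDM, 10.4% and 25.4% with Grass, and 4.34% and 13.6% with Cat, and nothing particular to a list is read from its count. The median log2 difference of the 61 was -0.06, -0.03 and -0.03, beside -0.03, -0.04 and -0.03 over all tested rows. Under TMM, DESeq2 and upper-quartile scaling the number lower with HDM was 9, 9 and 8, and with Cat 3 under each. Lower calls over all 11455 tested rows became fewer too. With HDM they went from 2513 to 1677, 1684 and 1156, and with Cat from 1563 to 1094, 1095 and 834.

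Of 21 tested inflammasome sensors, adaptors and regulators, 4 rose and 6 fell with HDM, 5 and 5 with Grass, and 1 and 3 with Cat, beside 9.22% higher and 21.9% lower, 10.4% and 25.4%, and 4.34% and 13.6% of all tested rows. Txnip, whose protein binds thioredoxin and has been linked to NLRP3 activation, was at 586 and 613 in untreated cells, 847 and 812 with HDM, 706 and 717 with Grass, and 578 and 559 with Cat. The HDM libraries were highest and the Grass libraries next, and Txnip rose by 0.47 and 0.25 (SE 0.03 each). Panx1, a channel that releases ATP, was picked after its values were seen. It was at 22.3 and 21.1 in untreated cells, 28.7 and 29.1 with HDM, 28.9 and 30.1 with Grass, and 26.9 and 28.2 with Cat, and it rose with all 3 extracts, by 0.41, 0.44 and 0.34 (SE 0.05 each). All 6 allergen libraries lay above both untreated ones. Serpinb1a, an inhibitor of neutrophil proteases, fell with HDM from a mean of 2.70 to 1.39, by 0.91 (SE 0.17). Ifi204, an interferon-induced DNA sensor with close copies in the genome, fell by 0.72, 0.71 and 0.75 (SE 0.17 each), and these calls ended under 8, 6 and 10 of 20 alternatives. Its untreated values of 34.5 and 46.3 differed in the direction of the interferon list.

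The gasdermins other than the members were at or near 0 except Gsdmc4, which had means of 10.2 in untreated, 9.59 in HDM, 9.28 in Grass and 8.72 in Cat cells, was not called and has close copies. Gsdma, Gsdma2, Gsdma3 and Gsdmc2 had 0 reads in every library. Ninj1, whose protein ruptures the plasma membrane during lytic death, was at 39.9 and 39.6 in untreated cells, 45.5 and 46.9 with HDM, 49.4 and 51.9 with Grass, and 43.9 and 44.0 with Cat. All allergen libraries lay above the untreated ones, and Ninj1 rose by 0.22, 0.35 and 0.14 (SE 0.04 each), a Cat call that ended under 5 of 20 alternatives. Chmp4b, a subunit of the ESCRT-III machinery that repairs membranes, fell by 0.16, 0.14 and 0.10 (SE 0.03 each). Its Cat call ended under 10 alternatives and its Grass call with upper-quartile scaling. Chmp3, of the same machinery, fell with Grass by 0.12 (SE 0.04), a call that ended under 7.

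Of the other caspases and their inhibitors, Casp9, the apoptosome's caspase, fell with HDM by 0.13 (SE 0.04), and Casp2 fell with Cat by 0.14 (SE 0.05), calls that ended under 7 and 10 alternatives. Xiap, an inhibitor of caspases, fell by 0.19, 0.24 and 0.16 (SE 0.03 each), and its Cat call ended without Cat 2, at -0.13. Hax1, a mitochondrial survival factor, fell with HDM by 0.12 (SE 0.03), a call that ended under 4 alternatives.

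Of 10 tested death receptor genes 2 rose and 1 fell with HDM, 2 rose with Grass and 1 with Cat. Of all tested rows 9.22% rose and 21.9% fell with HDM, and 10.4% and 4.34% rose with Grass and Cat. Fas, the CD95 death receptor, had 28 and 36 reads in untreated cells, 68 and 44 with HDM, 68 and 59 with Grass, and 47 and 40 with Cat. Fas rose by 0.62 (SE 0.21) after HDM and by 0.69 (SE 0.21) after Grass. Both calls ended with DESeq2, without untreated 1 and without either library of the extract, and the HDM call also in a fit of the 4 libraries compared. Ripk1, a kinase that sets survival against death signalling, rose by 0.13, 0.24 and 0.11 (SE 0.03 each), with a Cat call that ended under 8 alternatives. Tnfrsf1a, a TNF receptor, fell with HDM by 0.20 (SE 0.04).

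Of 6 tested necroptosis genes, 3 were lower after HDM, 3 after Grass and 1 after Cat, beside 21.9%, 25.4% and 13.6% of all tested rows. Tlr3, a receptor of double-stranded RNA, fell by 0.40, 0.27 and 0.30 (SE 0.09 each), with Grass and Cat calls that ended under 8 and 5 alternatives. Its adaptor Ticam1 fell with HDM and with Grass, by 0.17 each (SE 0.06), calls that ended under 8 alternatives each. The phosphatase gene Ppm1b fell by 0.10 and 0.16 (SE 0.04 each), calls that ended under 10 and 2.

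Of the interleukin-1 family and its receptors 8 of 13 were tested. Of these, 1 fell with HDM and with Grass and 0 with Cat, beside 21.9%, 25.4% and 13.6% of all tested rows. That gene is Il1rl1, the receptor of interleukin-33, at 31.0 and 31.3 in untreated cells, 26.8 and 25.7 with HDM, 25.8 and 23.9 with Grass, and 28.8 and 29.2 with Cat. It fell by 0.25 and 0.32 (SE 0.05 each), and the HDM and Grass libraries lay below the rest. Il1b had 0 to 5 reads and Il1a 1 to 4 reads in a library, so that changes in these cytokines were not detectable at this depth.

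**Figure D4:**
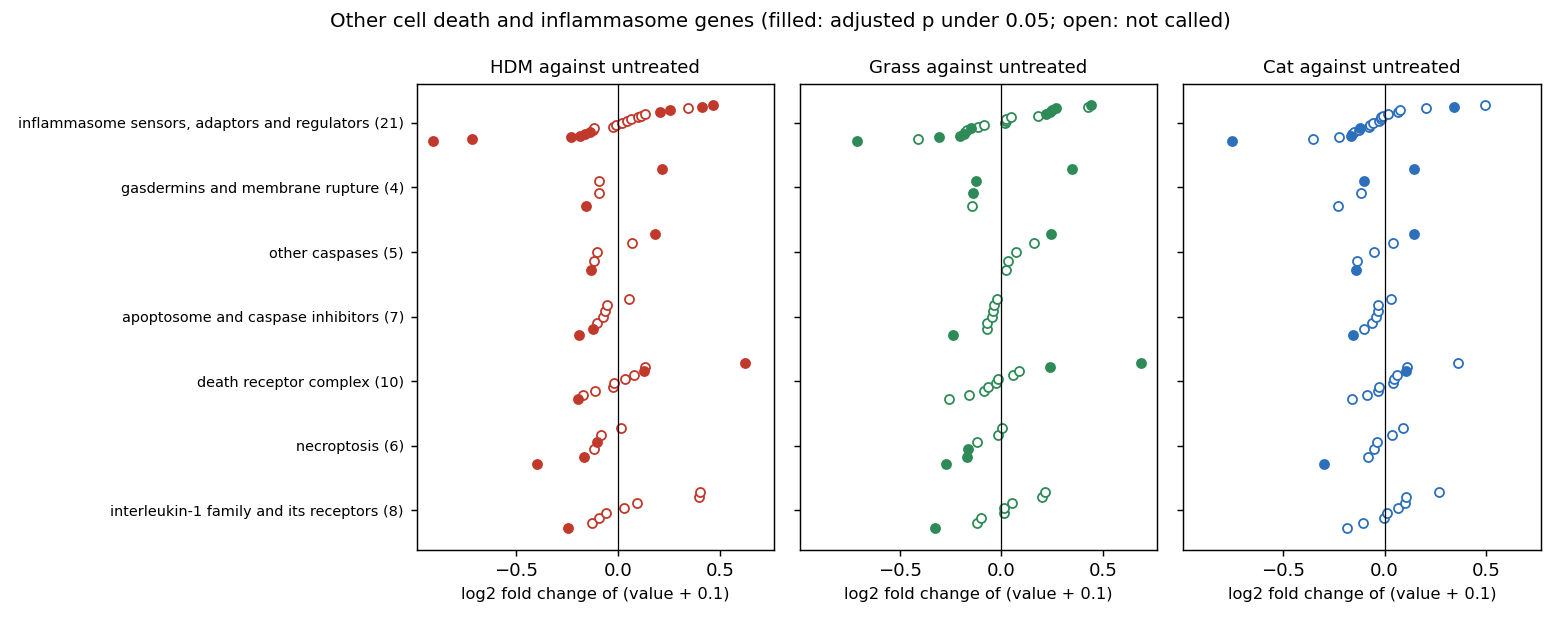
Each point is 1 of the 61 tested genes of the 7 lists; the x axis is the log2 fold change of (value + 0.1) against untreated in each of the 3 comparisons, the y axis the list, and filled points passed an adjusted p of 0.05. Most points lie near 0, and those farther out include Serpinb1a (-0.91) and Ifi204 (-0.72) with HDM and Fas with HDM (0.62) and Grass (0.69).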

How the data were processed

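Messenger RNA of 8 DC2.4 libraries was sequenced after stranded library preparation, per the labels. Bowtie2 2.1.0, RSEM 1.2.15, edgeR and build mm9 are named by the submitters' processing notes, which give them no order or role. The deposited gene table is a depth-scaled signal: divided by a step specific to its library, 100% of the nonzero values came out as whole reads (largest distance 8.7e-10). The authors' deposited tables of changed genes add a signed fold score, a p-value and an FDR for each gene.

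The signal was tested with limma 3.58.1 (R 4.3.3, trend and robust) on log2(value + 0.1) for 6 comparisons, leaving 4 residual degrees of freedom; p-values were adjusted by Benjamini-Hochberg over 11455 rows. Limma draws each gene's spread toward that of rows of similar level, so its p-values rest in part on the spread of other genes. Fold changes on this scale understate those of low genes. EdgeR 4.0.16 on the recovered reads with the deposited scaling called 1045 rows higher and 2515 lower with HDM, 1212 and 2939 with Grass, and 473 and 1542 with Cat. With TMM factors and its own filter it called 1491 and 1607, 1712 and 1913, and 756 and 1035. DESeq2 1.42.0, other scalings, filters and pseudocounts, a replicate block and leaving out each library were alternatives. The fit was tested on simulated data that set the same spread beyond counting error for all genes and groups. That check cannot show how the fit does with the spread of these libraries. Replicates differed by more than sampling noise (chi-square per degree of freedom 2.20 to 4.36).

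The members and lists were chosen with earlier results of these data known. In each pathway list, up to 3 called genes with the largest change against untreated are named. Panx1, Gsdmc4 and the other unlisted gasdermins, Il1a, Il1b, Bco2, Tex12, Casp12, Cd74, Cd86, Zbtb46 and Flt3 were chosen after their values were seen. RefSeq promoters were found for 7 of the 8 members, Gsdmd being the exception. Some results that the naming rules would include are not reported here.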

Additional observations from a re-analysis of the deposited data

How the results depend on the processing

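Of 11 calls of the 8 genes, 9 held under all 20 alternatives, and those of Gsdmd with HDM and Casp8 with Cat did not. Of 37 calls of the named pathway genes 17 held and 20 were lost under at least 1. The cause was not tested where counts moved. Calls over all tested rows moved as well, also with 1 library left out, but not always in the direction of the 8 genes. In the fit with the replicate block, genes of the 8 lower with HDM went from 1 to 2, while all rows lower went from 2513 to 2458. Of all rows, limma called 2513 lower with HDM and DESeq2 on recovered reads 1217. Samples with the same number showed little shared deviation (correlations -0.08 to 0.128 between groups). With only 1 pair of libraries per group, this cannot exclude that samples of the same number were prepared together. Other pathway genes lower with HDM numbered 9 with TMM or DESeq2 scaling and 8 with upper-quartile scaling, edgeR with TMM or DESeq2. With Grass 15 were higher and 5 lower with upper-quartile scaling, and 6 lower with DESeq2. With Cat, 0 genes of the 8 were lower with no filter, TMM, DESeq2 or upper-quartile scaling, edgeR with TMM, DESeq2 or only the 4 libraries compared. Pathway genes with Cat were then 4 lower with no filter and 3 in the other 6 of these, with 2 higher in DESeq2 and in the 4-library fit. Members higher numbered 2 for HDM against Grass with only the 4 libraries. They also numbered 2 for HDM and Grass against Cat with the filter at 1, TMM, DESeq2 or upper-quartile scaling, both edgeR fits and the 4-library fit.

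With 1 library left out, members with HDM ranged from 1 to 2 higher and 1 to 3 lower, with Grass from 1 to 2 lower, and with Cat from 0 to 1 lower. Members higher ranged from 1 to 2 in each comparison of extracts. Pathway genes ranged from 5 to 9 higher and 7 to 20 lower with HDM, 7 to 10 and 6 to 19 with Grass, and 2 to 4 and 2 to 14 with Cat. The lowest count lower was without HDM 2 (7), Grass 1 (6) and Cat 2 (2), and the count was 19 with Grass and 14 with Cat without untreated 1.

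No difference was called under an alternative that turned its sign, though Casp9 with Grass was called with upper-quartile scaling and Hax1 with Grass without untreated 1, each in its original direction. Casp4 with Grass was 0.0237 with TMM, 0.0223 with DESeq2 and 0.0605 with upper-quartile scaling, 0.0129 in edgeR with TMM and in DESeq2, and -0.20 to 0.16 with 1 library left out. Casp4 with Cat was 0.0085, 0.0086 and 0.0279 with these scalings and 0.0022 in edgeR with TMM (-0.20 to 0.17). Casp4 for Grass against Cat was 0.0153, 0.0137 and 0.0326, then 0.0107 in edgeR with TMM and 0.0136 in DESeq2 (-0.10 to 0.10). Il18 with Grass was -0.0012 in edgeR with the deposited scaling (-0.10 to 0.10). Nlrp3 with Cat was 0.0175 with upper-quartile scaling and 0.0001 in edgeR with TMM (-0.0777 to 0.0228). With upper-quartile scaling Hax1 with Grass was 0.0103, and with Cat Tnfrsf1a was 0.0174 (-0.0858 to 0.0308 with 1 library left out) and Ppm1b 0.0084. Other ranges with 1 library left out that crossed 0 were those of Gsdmd with Grass (-0.021 to 0.0591), Casp9 with Grass (-0.0065 to 0.0681) and Dfna5 with Cat (-0.1225 to 0.0239). For HDM against Grass they were those of Casp1 (-0.0594 to 0.0814) and Casp8 (-0.0252 to 0.0083), and for HDM against Cat those of Casp8 (-0.0039 to 0.10) and Il18 (-0.1367 to 0.071). Depth limits Pycard, Il1a and Il1b, with at most 8 reads in a library.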
